A study of Mus musculus with 3 samples.

Results

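The 9 genes described here encode transcription factors that act in the T-cell lineage: Tcf7, Lef1, Bcl11b, Gata3, Satb1, Bach2, Tbx21, Ets1 and Zbtb7b. They were taken by name from the 36835 genes with values in all 3 columns of the deposited table. Levels are in FPKM, the number of fragments of a transcript divided by its length in kilobases and by the mapped reads in units of 1000000, so that levels of different genes can be set side by side. For each transcript identifier the first row with values in all 3 columns was kept, and a gene's level is the sum of FPKM over its transcripts.

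The study asked whether macrophages of mouse renal tumors express Foxp3, and sequenced the RNA of 3 sorted cell subsets with 1 library each. All cells came from BALB/C mice that carried tumors of Renca, a mouse renal tumor cell line, injected into the kidney (the paper gives its derivative Renca Ch+ L+, which carries Cherry and luciferase), and no library came from mice without a tumor. Macrophages were sorted from 30 pooled tumors, M2 as F4/80 high and CD11b intermediate cells and M1 as F4/80 intermediate and CD11b high cells. CD4 T cells were sorted as TCRbeta+ CD4+ cells from 4 pooled spleens by the extraction protocol, although another label names the tumors as their source, and the labels give both day 14 and day 16 for the harvest. With 1 library per subset there was no replicate check, so no test and no p-value are given and the differences below compare these libraries, not the conditions.

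The markers of the sorted cells go against the labels M2 and CD4. All 15 of 15 T-cell markers were highest in the M2-labelled library, with a summed level of 1987 FPKM there, 18.0 in the CD4-labelled one and 6.56 in the M1-labelled one. The most abundant were Trbc1, which encodes a constant part of the TCRbeta chain, at 434, 0.329 and 0.400 FPKM in that order, and Lck, a kinase of T cell receptor signalling, at 209, 0.214 and 0.408 FPKM. Cd247 was listed at 0 in the CD4- and M1-labelled libraries in the rows used. With all rows of each identifier summed the 3 sums were 13030, 24.2 and 11.1 FPKM, since Cd5 went from 81.3 to 11070 FPKM in the M2-labelled library, Cd247 was at 2.74 and 3.14 FPKM in the other libraries, and all 15 markers were again highest in the M2-labelled one. The 15 macrophage markers found under their symbols, of 16 sought, were all at least 2-fold lower in the M2-labelled library than in either other library, with a summed level of 698 FPKM there against 13773 in the CD4-labelled one and 8824 in the M1-labelled one. Lyz2, which encodes lysozyme, was at 330, 6687 and 5975 FPKM in that order and C1qa, a complement subunit, at 64.9, 1690 and 440 FPKM. The remaining one, Spi1, stands in the table under its older symbol Sfpi1, at 7.51, 112 and 139 FPKM, and is not part of the sums. Emr1 and Itgam encode the surface markers of the macrophage sorts, in the order named above. Emr1 was at 9.16, 215 and 45.3 FPKM in the M2-, CD4- and M1-labelled libraries, and Itgam at 14.7, 201 and 299 FPKM. The CD4-labelled library was thus above the M1-labelled one in Emr1 and below it in Itgam, the order given for the M2 and M1 sorts. Whether column headings were exchanged was not tested. The libraries are therefore called by their labels throughout, and every direction below rests on those labels. In RNA from many cells, fewer cells of a type and less RNA per cell cannot be told apart.

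Tcf7 (TCF-1) and Lef1 are related DNA-binding proteins that act early in T-cell development in the thymus and stay on in naive T cells, where they can work with beta-catenin. Gata3, Bcl11b, Satb1 and Ets1 are needed at successive steps of T-cell development, and Zbtb7b (ThPOK) is known for directing thymocytes to the CD4 helper fate. In mature T cells Tbx21 (T-bet) and Gata3 mark the Th1 and Th2 types of helper cells, and Bach2 restrains effector genes.

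All 9 genes were highest in the M2-labelled library, and 9 of 9 were at least 2-fold higher there than in the CD4-labelled library, on the scale of FPKM + 1. On that scale 15.9% of the 11859 genes with a mean of at least 1 FPKM over the 3 libraries were at least 2-fold higher in this comparison and 15.2% at least 2-fold lower. The median log2 ratio of FPKM + 1 was 3.53 over the 9 genes, from 2.07 for Zbtb7b to 7.84 for Tcf7, beside 0.088 over all genes compared. Against the M1-labelled library, 8 of 9 were at least 2-fold higher, where 15.5% of all genes were higher and 14.4% lower, and the median log2 ratio was 3.69 beside 0.072 over all genes. That median is the value of Bach2, which like Tbx21 was listed at 0 in the M1-labelled library. Zbtb7b was the gene that did not reach 2-fold. Between the CD4- and M1-labelled libraries, 0 of 9 were at least 2-fold higher in the CD4-labelled one and 1, again Zbtb7b, was at least 2-fold lower, where 6.14% of all genes were higher and 6.43% lower. These comparisons share libraries, so that the counts against CD4 and M1 do not stand independently of each other.

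Of the 9 genes, 6 passed the mean of 1 FPKM through the M2-labelled library alone, since their mean over the other 2 libraries was below 1 FPKM. The 3 others were Gata3, Ets1 and Zbtb7b. With no filter on low values, 5.85% of 36835 genes were at least 2-fold higher in the M2-labelled library than in the CD4-labelled one and 5.17% lower, and 5.73% and 4.90% against the M1-labelled one. Rows above 100000 FPKM held 81.2%, 85.7% and 88.0% of the summed FPKM of the M2-, CD4- and M1-labelled libraries. When each column was rescaled to a total of 1000000 after leaving out rows above 100000 FPKM, the shares higher and lower were 7.90% and 13.8% against the CD4-labelled library and 5.37% and 20.03% against the M1-labelled one. These shares are of the 8822 genes with a mean of at least 1 on the rescaled values. This rescaling moved the median log2 ratio of the 11859 genes that passed before rescaling to -0.018 and -0.25. The 6 of the 9 genes that kept a mean of at least 1 on the rescaled values had medians of 4.01 and 4.06. These medians leave out 3 of the 9 genes, and the ratios of the 6 kept genes fell, for Tcf7 to 5.72 and for Gata3 to 1.73 against the CD4-labelled library. The change of totals by itself moves a log2 ratio by -0.14 against the CD4-labelled library and by -0.49 against the M1-labelled one. The rescaled values were also smaller while 1 was still added to them, which shrinks large log2 ratios.

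**Figure D1:**
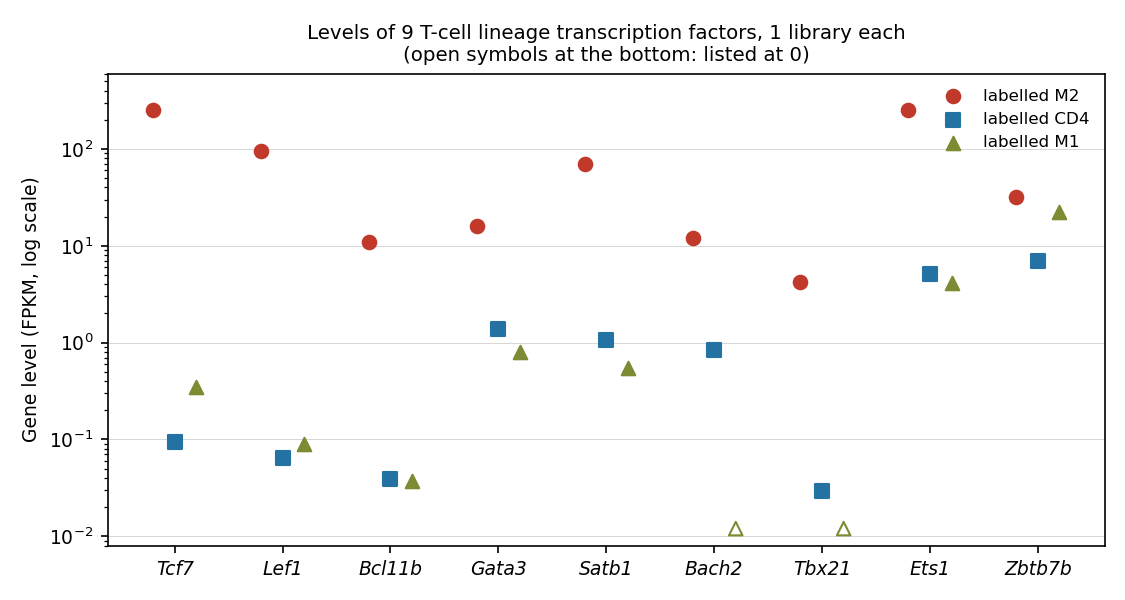
Level of each of the 9 genes in FPKM on a log axis, 1 symbol per library, with open symbols at the bottom for genes listed at 0. The symbols of the M2-labelled library lie at the top of every column, from 4.21 FPKM for Tbx21 to 252 for Ets1, and those of the other libraries fall closest to them for Zbtb7b.

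**Figure D2:**
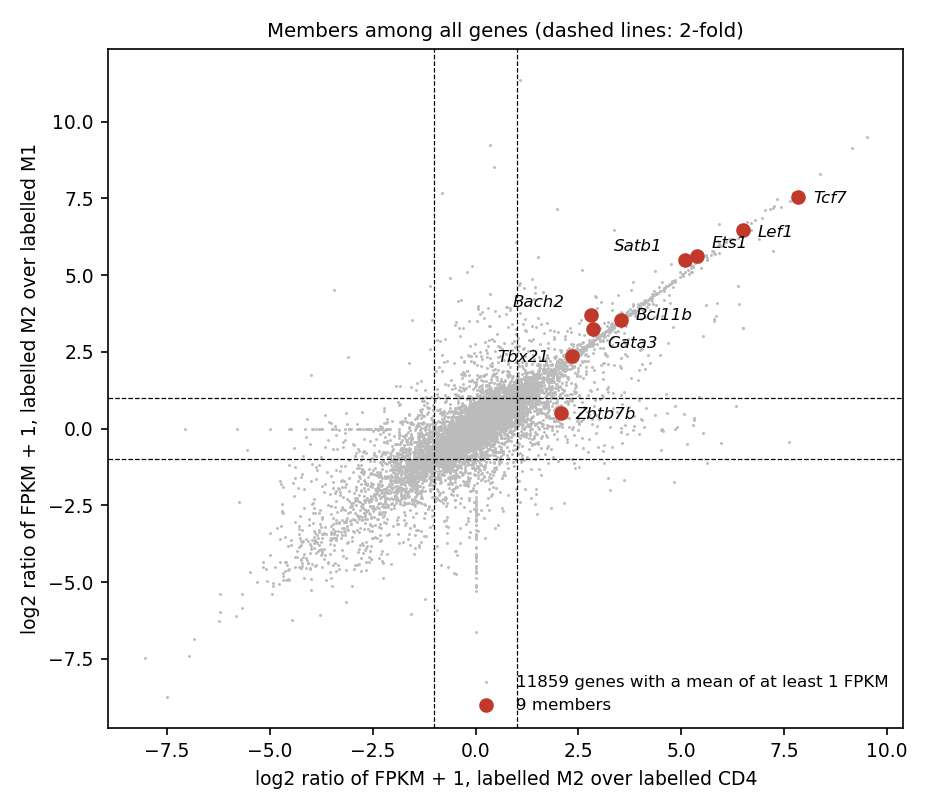
Log2 ratio of FPKM + 1 of the M2-labelled library over the CD4-labelled one (horizontal) and over the M1-labelled one (vertical) for 11859 genes (grey) and the 9 genes (red), with dashed lines at 2-fold. The axes share the M2-labelled library; Tcf7 lies at 7.84 and 7.54 and Zbtb7b at 2.07 and 0.50.

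Tcf7 (ENSMUSG00000000782, chromosome 11 from 52065873 to 52096681, reverse strand, build NCBIM37) and Lef1 (ENSMUSG00000027985, chromosome 3 from 130813389 to 130927274, forward strand) make up the first pair. Tcf7 was at 250 FPKM in the M2-labelled library, 0.0939 in the CD4-labelled one and 0.344 in the M1-labelled one. It was above 99.3% of the genes with a level above 0 in the M2-labelled library, and above 21.5% and 32.4% of them in the CD4- and M1-labelled ones. Its level was 2661 times that of the CD4-labelled library and 726 times that of the M1-labelled library. Lef1 was at 94.997, 0.0644 and 0.0897 FPKM in those libraries, a level 1476 and 1059 times as high in the M2-labelled library. For both genes the M2-labelled library stood apart and the other 2 were near the level of few fragments: at the estimated depths of 61500000, 75400000 and 61700000 fragments, Lef1 corresponded to about 14586, 12.1 and 14.5 fragments and Tcf7 to about 38190, 18.0 and 52.5. Such limits cover counting error only, and Cufflinks shares the fragments of overlapping transcripts by a model.

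In both genes the transcript with the shorter coding sequence had most of the level in the M2-labelled library. The long forms of these factors are known to begin with the part that binds beta-catenin, and short forms lack it. Tcf7-001 (ENSMUST00000086844, 303 codons) was at 201 FPKM in the M2-labelled library, 0 in the CD4-labelled one and 0.344 in the M1-labelled one. Tcf7-201 (ENSMUST00000072425, 419 codons) was at 48.7, 0.0939 and 0 FPKM. Tcf7-001 thus held 80.5% and Tcf7-201 19.5% of the Tcf7 level in the M2-labelled library. The coding sequence of Tcf7-001 begins after coding base 348 of Tcf7-201, at an ATG in the same reading frame, so that it lacks the first 116 codons. The coding sequences below are shown because they hold the difference between the forms, and the capitals mark the start codon of each form.
Tcf7-201, coding bases 1 to 60: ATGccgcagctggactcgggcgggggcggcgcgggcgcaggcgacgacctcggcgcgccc
Tcf7-201, coding bases 319 to 408, with the start codon of Tcf7-001: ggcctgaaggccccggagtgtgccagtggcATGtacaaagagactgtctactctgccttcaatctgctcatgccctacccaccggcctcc
Lef1-001, coding bases 1 to 60: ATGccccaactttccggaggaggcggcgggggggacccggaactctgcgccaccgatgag
Lef1-002, coding bases 1 to 60: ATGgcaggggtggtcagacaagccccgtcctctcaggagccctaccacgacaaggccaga

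Lef1-002 (ENSMUST00000098611, 331 codons) was at 79.1 FPKM in the M2-labelled library, 0.0347 in the CD4-labelled one and 0.0651 in the M1-labelled one. Lef1-001 (ENSMUST00000029611, 397 codons) was at 15.9, 0 and 0.0246 FPKM. Lef1-002 held 83.3% and Lef1-001 16.7% of the Lef1 level in the M2-labelled library. After 8 coding bases of its own Lef1-002 continues with the sequence of Lef1-001 from coding base 207 onward, and the forms share 988 coding bases. The other Lef1 rows with a value were Lef1-004 at 0.0153 and Lef1-003 at 0.0144 FPKM, both in the CD4-labelled library. Because the forms of each gene share most of their sequence, these shares rest on the fragments of the parts that differ.

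Ets1 (ENSMUSG00000032035, chromosome 9 from 32443806 to 32565405, forward strand), founder of the ETS factors, was at 252 FPKM in the M2-labelled library, the highest of the 9 genes, 5.12 in the CD4-labelled one and 4.14 in the M1-labelled one. It was 49.3 and 60.9 times as high in the M2-labelled library. In the CD4- and M1-labelled libraries it stood above 58.2% and 55.1% of the genes with a level above 0, with about 1952 and 1293 fragments, so that its lower levels were not a matter of a few fragments. The whole level belonged to Ets1-201 (ENSMUST00000034534, 440 codons), while the shorter coding transcript ENSMUST00000050797, with 353 codons, was listed at 0 in each library. The 2 coding sequences differ by 261 bases, coding bases 730 to 990 of Ets1-201, or the same stretch moved slightly, since the bases at its edges repeat. They are shown here in capitals with 15 bases on each side since they are what sets the form with a level apart from the form at 0.
Ets1-201, coding bases 715 to 1005: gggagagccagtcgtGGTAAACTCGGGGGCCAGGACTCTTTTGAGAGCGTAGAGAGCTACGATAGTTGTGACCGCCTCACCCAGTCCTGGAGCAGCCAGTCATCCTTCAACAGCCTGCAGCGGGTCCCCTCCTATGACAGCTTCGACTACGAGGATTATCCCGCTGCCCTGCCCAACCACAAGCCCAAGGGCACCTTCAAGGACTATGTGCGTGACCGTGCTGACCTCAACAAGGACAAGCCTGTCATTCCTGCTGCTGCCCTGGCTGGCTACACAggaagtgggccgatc

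Satb1 (ENSMUSG00000023927, chromosome 17 from 51875512 to 51972615, reverse strand), a chromatin organizer of thymocytes, was at 69.3 FPKM in the M2-labelled library, 1.06 in the CD4-labelled one and 0.547 in the M1-labelled one. It was 65.1 and 127 times as high in the M2-labelled library. Satb1-007 was at 52.2, 0.315 and 0.292 FPKM and held 75.4% of the level in the M2-labelled library. Satb1-001 was at 17.1, 0.136 and 0.117 FPKM, with 24.6%. In the CD4-labelled library the largest share, 41.6%, belonged to another transcript, Satb1-003, at 0.443 FPKM, which was listed at 0 in the M2-labelled library. A second row of Satb1-004, with a dash in the other 2 columns, listed 12.1 FPKM in the M2-labelled library, and with it Satb1 was at 81.4 FPKM there. Satb1-001 has 12 coding bases that Satb1-007 lacks, within a run of repeated CAG and CAA triplets. Because of the repeats, several placements of these bases give the same shorter sequence. The first of them, coding bases 1777 to 1788, is shown in capitals.
Satb1-001, coding bases 1747 to 1818: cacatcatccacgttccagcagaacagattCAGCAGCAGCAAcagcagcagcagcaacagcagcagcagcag

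**Figure D3:**
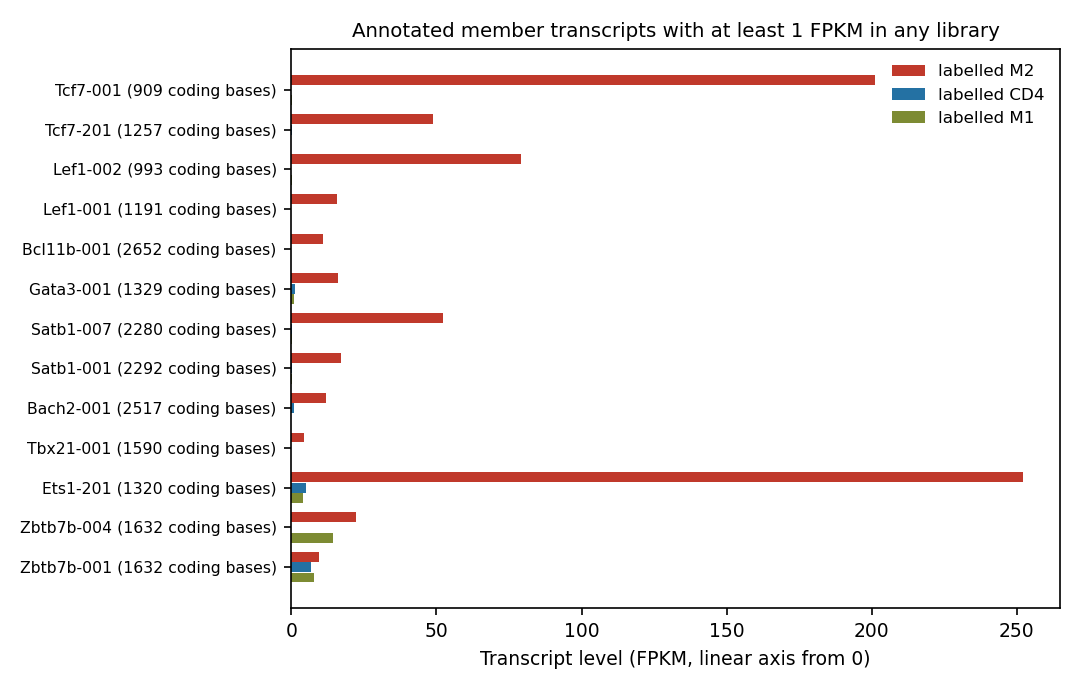
FPKM of the 13 annotated transcripts of the 9 genes that reached 1 FPKM in any library in the rows used. The linear axis starts at 0, with 1 bar per library and the number of coding bases (without the stop codon) after each name. Tcf7-001 at 201 FPKM and Ets1-201 at 252 FPKM in the M2-labelled library are the longest bars, and Zbtb7b-001 has bars of like length in the 3 libraries, at 9.63, 6.88 and 7.92 FPKM.

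Bcl11b (ENSMUSG00000048251, chromosome 12 from 109148613 to 109241812, reverse strand), a zinc finger factor of T-cell commitment, was at 11.0 FPKM in the M2-labelled library, 0.0395 in the CD4-labelled one and 0.0376 in the M1-labelled one. It was 279 and 292 times as high in the M2-labelled library, and the other 2 levels came from about 20.4 and 6.70 fragments. Bcl11b-001 held all of the level in the M2-labelled library. A second row of Bcl11b-001, with a dash in the other 2 columns, listed another 20.04 FPKM in the M2-labelled library. With it the gene was at 31.0 FPKM there, and its log2 ratio to the CD4-labelled library went from 3.53 to 4.95.

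Gata3 (ENSMUSG00000015619, chromosome 2 from 9778705 to 9811661, reverse strand), the zinc finger factor of T-cell development and Th2 cells, was at 16.0 FPKM in the M2-labelled library, 1.38 in the CD4-labelled one and 0.807 in the M1-labelled one. It was 11.7 and 19.9 times as high in the M2-labelled library. Gata3-001 held the whole level in each library in the rows used. The rows with a dash added 0.554 FPKM in the CD4-labelled library and 1.11 in the M1-labelled one, which brought these 2 libraries to 1.93 and 1.92 FPKM. They belonged to another transcript, Gata3-201, in the CD4-labelled library. In the M1-labelled one, Gata3-201 had 0.414 FPKM and Gata3-001 0.697. The kit did not mark strand, so that reads of Gata3 and of Gm13256, which overlaps its exons on the opposite strand and was listed at 0, could not be told apart.

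Tbx21 (ENSMUSG00000001444, chromosome 11 from 96959385 to 96976645, reverse strand), the T-box factor of Th1 cells, had the lowest level of the 9 genes in the M2-labelled library, at 4.21 FPKM. It was at 0.0295 FPKM in the CD4-labelled library, 143 times lower and from about 5.53 fragments, and was listed at 0 in the M1-labelled library. At the estimated depth 3 fragments would have given 0.0195 FPKM of its only transcript in that library. A value listed at 0 can also be a failed estimate, so no fold is given against it.

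Bach2 (ENSMUSG00000040270, chromosome 4 from 32325779 to 32673083, forward strand), a repressor of effector genes, was at 11.9 FPKM in the M2-labelled library, 0.833 in the CD4-labelled one and listed at 0 in the M1-labelled one. The M2-labelled library was 14.3 times as high as the CD4-labelled one. All of this was Bach2-001. Bach2-002 had 6 rows beside its complete row of zeros, each with a dash in at least 1 column, and they listed 3.12 FPKM in the M2-labelled library, 3.92 in the CD4-labelled one and 2.24 in the M1-labelled one. With these rows Bach2 was at 15.01, 4.76 and 2.24 FPKM, the order of the libraries was kept and the M2-labelled library was 3.16 times as high as the CD4-labelled one. BC024582, which overlaps Bach2 exons on the opposite strand, was listed at 0.994 FPKM in the M1-labelled library and at 0 in the others.

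Zbtb7b (ENSMUSG00000028042, chromosome 3 from 89181566 to 89198698, reverse strand) was the gene with the smallest differences between the M2-labelled library and the others. It was at 32.1 FPKM in the M2-labelled library, 6.88 in the CD4-labelled one and 22.3 in the M1-labelled one. The M2-labelled library was 4.66 times as high as the CD4-labelled one and 1.44 times as high as the M1-labelled one, and the M1-labelled library was 3.24 times as high as the CD4-labelled one. Zbtb7b-004 was at 22.4, 0 and 14.4 FPKM and Zbtb7b-001 at 9.63, 6.88 and 7.92 FPKM, so that the 3 libraries were within 3 FPKM of each other in Zbtb7b-001 and the gap lay in Zbtb7b-004. Zbtb7b-003 had a first complete row of zeros, a second complete row of 8.06, 11.4 and 13.2 FPKM, and a further row of 11.1 FPKM in the CD4-labelled library alone. The coding sequences of these 3 transcripts are the same, 544 codons, and their starts differ.

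The call for Zbtb7b therefore turned on which rows were summed. With both complete rows of Zbtb7b-003 the gene was at 40.1 FPKM in the M2-labelled library, 18.3 in the CD4-labelled one and 35.5 in the M1-labelled one, and the log2 ratio between the first 2 was 1.09. With every row it was at 40.1, 29.3 and 35.5 FPKM, and that log2 ratio was 0.44, below 2-fold. In all of these sums the M2-labelled library was the highest. Gm15417, which shares exon bases with Zbtb7b on the opposite strand, was listed at 0 in each library.

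**Figure D4:**
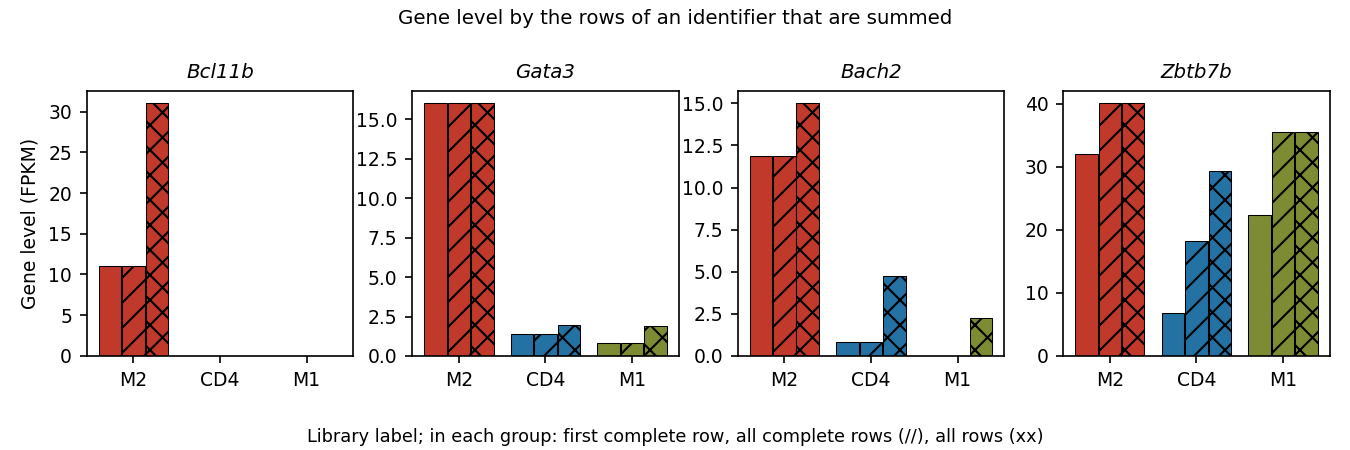
FPKM of 4 genes in the 3 libraries when the first complete row of each identifier (plain bars), all complete rows (single hatching) or all rows with a dash as 0 (crossed hatching) are summed, each panel with its own linear axis from 0. In the M2-labelled library Bcl11b rises from 11.0 to 31.0 FPKM, and in the CD4-labelled library Zbtb7b rises from 6.88 to 29.3.

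The table held 71 rows for the 9 genes, 14 of them with a dash in at least 1 column. Of 60 annotated transcripts of the 9 genes 57 had rows and 56 had a row with values in all 3 columns. In the rows used, 13 of these reached 1 FPKM in any library and 37 were listed at 0 in all 3. Other rows listed more than 1 FPKM for Zbtb7b-003, Satb1-004 and Bach2-002, and at most 0.554 FPKM for Gata3-201. These transcripts were at 0 in the rows used. Lef1, Tbx21 and Ets1 had no row with a dash.

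Set against the M2-labelled library, the level in the CD4-labelled library was 0.0376% for Tcf7, 0.0678% for Lef1, 0.359% for Bcl11b and 0.700% for Tbx21. It was higher for Satb1 at 1.54%, Ets1 at 2.03%, Bach2 at 7.01%, Gata3 at 8.58% and Zbtb7b at 21.5%. The 9 genes therefore spanned a wide range, and 4 of them were at or below 1%. In the M1-labelled library the shares ran from 0 for Bach2 and Tbx21 to 69.6% for Zbtb7b, and 6 of 9 were at or below 1%. With all rows summed, the share of Bach2 was 31.7% in the CD4-labelled library and 14.9% in the M1-labelled one, and that of Zbtb7b 73.1% and 88.6%. Then 4 of 9 genes were at or below 1% in the CD4-labelled library and 5 of 9 in the M1-labelled one. For the 15 T-cell markers the share in the CD4-labelled library ran from 0 to 9.12%, the latter for Cd4 itself, with 13 of 15 at or below 1%. In the M1-labelled library it ran from 0 to 3.12%, with 14 of 15 at or below 1%. With all rows summed 12 of 15 were at or below 1% in each of these libraries. The share of all genes at or below 1% was not worked out, so the counts at this limit have no background beside them. Cd4, the coreceptor used in the sort, was at 166, 15.2 and 0.870 FPKM in the M2-, CD4- and M1-labelled libraries. Whether the levels of the 9 genes in the CD4- and M1-labelled libraries came from the same cells as the T-cell markers was not tested.

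Genes of other cell types also differed between the libraries. The 8 B-cell markers had a summed level of 58.7, 0.537 and 0.584 FPKM in the M2-, CD4- and M1-labelled libraries. Cd79a was at 18.2 FPKM in the M2-labelled one. Pax5 was at 0 in the rows used and at 6.49, 1.48 and 0.798 FPKM with all rows summed. Cd79b went the other way, at 0, 0.218 and 0.160 FPKM. The 10 markers of CD8 T and NK cells summed to 45.7, 1.54 and 6.59 FPKM, led by Nkg7 at 17.1 and Gzma at 8.69 FPKM in the M2-labelled library. Prf1 was at 0 there in the rows used but at 7.04 FPKM with all rows summed, which turned its direction. Klrb1c was highest in the M1-labelled library, at 0.735, 0 and 3.18 FPKM. The 8 neutrophil markers summed to 226, 10.9 and 49.6 FPKM, led by S100a9 at 110 and S100a8 at 84.5 FPKM, with Ly6g at 0 in the M2-labelled library. With all rows summed the neutrophil sums were 950, 347 and 419 FPKM, of which Elane held 723, 336 and 366, and Ly6g was at 1.26 FPKM in the M2-labelled library. The 6 dendritic cell markers summed to 27.4, 2.68 and 2.61 FPKM, led by Siglech at 13.2 and Ccr9 at 9.70 FPKM. Zbtb46 was lowest in the M2-labelled library, at 0.628, 1.21 and 1.42 FPKM. The 12 kidney epithelium markers summed to 194, 96.7 and 73.8 FPKM, led by Cdh16 at 87.8 and Krt8 at 54.6 FPKM in the M2-labelled library. Of the 12, 5 were highest in the M2-labelled library and 6 in the CD4-labelled one (Slc12a3, Slc12a1, Slc34a1, Aqp2, Cubn and Lrp2), and the median log2 ratio between these libraries was 0.084. Among the 9 genes Bach2 and Ets1 are also used by B cells and Gata3 by renal epithelium, and the part of these cells in their levels was not tested.

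The 9 genes have relatives of the same families. Of 14 relatives, 2 (14.3%, beside 15.9% of all genes compared) were at least 2-fold higher in the M2-labelled library than in the CD4-labelled one and 1 (7.14%, beside 15.2%) was at least 2-fold lower, and the median log2 ratio was -0.042. Of the 14, 8 were below 1 FPKM in all 3 libraries in the rows used. With all rows summed, 3 of the 14 were at least 2-fold higher and 2 at least 2-fold lower, beside 18.8% and 14.2% of all genes. Bcl11a, the relative of Bcl11b known from B cells, was at 4.62, 0.0568 and 1.04 FPKM in the M2-, CD4- and M1-labelled libraries. Eomes, the T-box relative of Tbx21 in CD8 T and NK cells, was at 1.66, 0.0263 and 0.0203 FPKM. These were the 2 that were higher in the rows used. Bach1, the relative of Bach2 that responds to heme, was at 6.55, 22.6 and 24.3 FPKM, the opposite order, with log2 ratios of -1.64 and -1.75 to the CD4- and M1-labelled libraries.

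Ets2 was at 18.2, 31.1 and 27.4 FPKM, also lowest in the M2-labelled library, but within 2-fold. Zbtb7a was at 7.79, 16.4 and 3.64 FPKM, and its log2 ratio of the M2-labelled library over the M1-labelled one went from 0.92 to -0.61 when all rows were summed. The other TCF genes were low: Tcf7l2 was at 0.231, 1.21 and 0.370 FPKM, and Tcf7l1 was listed at 0 in the M2-labelled library and was at 0.0700 and 0.0597 FPKM in the others. With all rows summed, Tcf7l1 was at 0.590 FPKM in the M2-labelled library and its order turned. Tcf7l2 was then at 0.602, 2.39 and 3.55 FPKM, at least 2-fold lower in the M2-labelled library than in either other one.

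Of the GATA factors other than Gata3, Gata2 was at 0.306, 0.0447 and 0.0306 FPKM in the M2-, CD4- and M1-labelled libraries. Gata4, Gata5 and Gata6 had levels of at most 0.122 FPKM in each library, as did Gata1, which was listed at 0 in the M2-labelled library. Summed over all rows Gata1 was at 2.99 FPKM there, so that its direction also turned with the rows. Zbtb7c was at 0.0405 FPKM or less in each library.

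**Figure D5:**
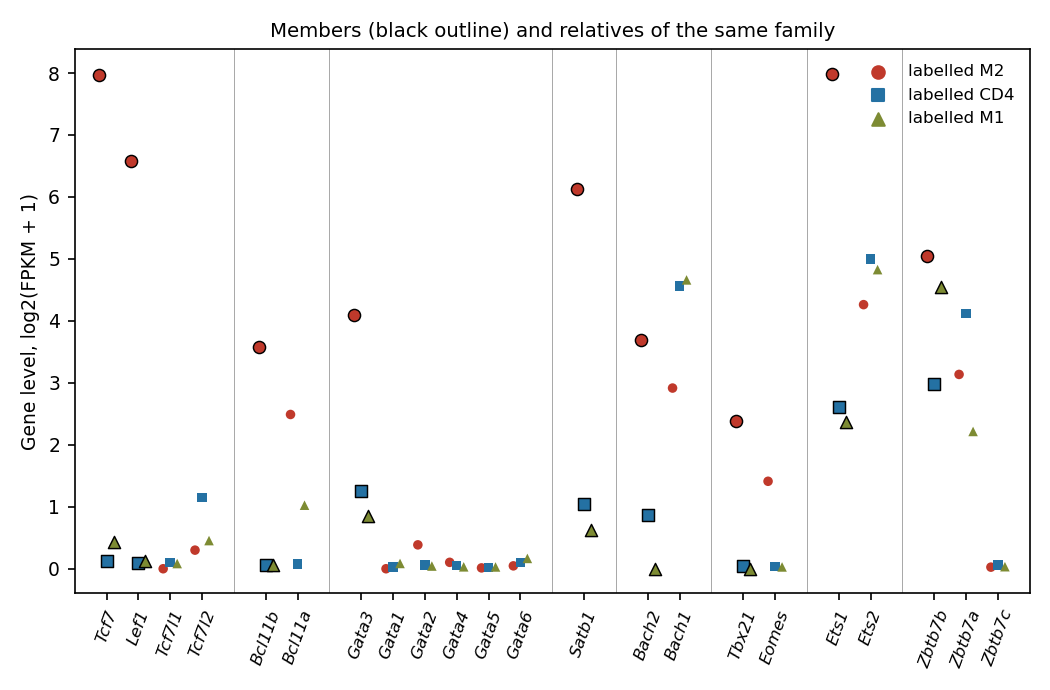
Level as log2(FPKM + 1) of the 9 genes (black outline) and 13 of their relatives, grouped by family, 1 symbol per library. Bach1 and Ets2 lie lowest in the M2-labelled library, at 6.55 and 18.2 FPKM, where Bach2 and Ets1 lie highest, at 11.9 and 252 FPKM.

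Of 30 other regulators of T cells, 11 (36.7%, beside 15.9% of all genes compared) were at least 2-fold higher in the M2-labelled library than in the CD4-labelled one and 2 (6.67%, beside 15.2%) were at least 2-fold lower, with a median log2 ratio of 0.63. Foxp1, which keeps T cells quiescent, was at 22.8 FPKM in the M2-labelled library and listed at 0 in the others. Stat4, which carries interleukin 12 signals, was at 23.8, 0.0792 and 0.947 FPKM, and Ikzf3, an Ikaros family factor of lymphocytes, at 14.5, 0.0503 and 0.0834 FPKM. The 2 lower ones were Runx3, a factor of CD8 T cells, at 3.59, 16.5 and 23.4 FPKM, and Maf, a factor shared by helper T cells and macrophages, at 14.2, 132 and 12.6 FPKM. Stat6, which carries interleukin 4 signals, was at 33.2, 49.3 and 55.1 FPKM, within 2-fold, and its log2 ratio of the M2-labelled library over the CD4-labelled one went from -0.56 to 0.01 when all rows were summed. Against the M1-labelled library, 13 (43.3%, beside 15.5%) were at least 2-fold higher and 3 (10%, beside 14.4%) at least 2-fold lower. The other regulators below the CD4-labelled library were Cbfb, Runx1, Gfi1, Batf and Prdm1, with differences under 2-fold in the rows used. Of these, Gfi1 was listed at 0 in the M2-labelled library but was at 6.83 FPKM there when all rows were summed. Prdm1 was then at 2.70 FPKM in the M2-labelled library and 8.70 in the CD4-labelled one, with a log2 ratio of -1.39, past 2-fold.

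Of 14 genes of helper T cells, 6 (42.9%, beside 15.9% of all genes compared) were at least 2-fold higher in the M2-labelled library than in the CD4-labelled one and 1 (7.14%, beside 15.2%) was at least 2-fold lower, with a median log2 ratio of 0.71. The largest ratios of FPKM + 1 were those of Cd40lg, the ligand of CD40, at 19.6, 0.0516 and 0.0692 FPKM, Il18r1, an interleukin 18 receptor chain, at 15.3, 0.654 and 0.547 FPKM, and Ccr4, a Th2 chemokine receptor, at 7.67, 0.00609 and 0.0324 FPKM. Hlx was the one that was lower, at 1.04, 15.6 and 9.93 FPKM. The cytokine genes Il5 and Il17a were at 0 in each library, as was Il4 in the rows used, while with all rows summed Il4 was at 0.265 FPKM in the M2-labelled library and 2.30 in the CD4-labelled one.

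Of 10 genes linked to Tcf7 and Lef1, 4 (40%, beside 15.9% of all genes compared) were at least 2-fold higher in the M2-labelled library than in the CD4-labelled one and 1 (10%, beside 15.2%) was at least 2-fold lower. Ccr7, a lymph node homing receptor, was at 122, 0.464 and 6.44 FPKM in the M2-, CD4- and M1-labelled libraries, and Il7r, the interleukin 7 receptor, at 104, 0.882 and 8.15 FPKM. Axin2, a target of the Wnt pathway, was also higher, at 8.34, 0.641 and 0.572 FPKM. Nrcam was the one that was at least 2-fold lower, at 0.240, 4.99 and 0.198 FPKM. Ctnnb1, which encodes beta-catenin, was at 98.0, 159 and 123 FPKM and Tle1, a corepressor of TCF factors, at 3.30, 5.39 and 5.87 FPKM, both within 2-fold.

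The genes outside all lists that lay nearest to the median profile of the 9 genes, by the Euclidean distance of log2(FPKM + 1) over the 3 libraries, were Faah, Themis, Dtx1, Sept6 and Tgtp1. The median profile was 5.05, 0.87 and 0.43 on the log2 scale in the M2-, CD4- and M1-labelled libraries. Faah was nearest, at a distance of 0.40, with 25.5, 0.719 and 0.572 FPKM, followed by Themis at a distance of 0.45, with 24.2, 0.764 and 0.567 FPKM. Dtx1 at 40.2, Sept6 at 26.3 and Tgtp1 at 40.1 FPKM in the M2-labelled library lay at distances of 0.50, 0.51 and 0.55. With 3 libraries, likeness of profile rests on 3 values per gene.

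Promoters were searched for 5 motifs, each as written and as its reverse complement, in the RefSeq windows of build GRCm38.p6 that reach from 250 bases before a start to 50 bases from it. The table held 17 windows for 8 of the 9 genes, with none for Ets1. The TCF/LEF motif TCAAAG was in 3 of the 17 windows and in 16.0% of all 32851 windows, the GATA motif AGATAA in 1 and in 11.2%, and the ETS motif CCGGAA in 3 and in 14.9%. The RUNX motif TGTGGT was in 1 of the 17 windows and in 16.8% of all windows, and the E-box CACCTG in 6 and in 20.2%. None of these motifs contains another, and a match describes the letters only. These 4 windows are shown because they belong to the main short form of Lef1, to Bcl11b, and to the starts of Zbtb7b-001, which had a level in each library, and of Zbtb7b-003, whose rows moved the call of that gene. Capitals mark motif matches, whose first base is counted from the start as position 1: TCF/LEF at -89 in Bcl11b, the E-box at -238 in Zbtb7b-001 and RUNX at -89 in Zbtb7b-003. The Lef1 window held no match.
Lef1-002, chr3:131112541-131112840, forward strand: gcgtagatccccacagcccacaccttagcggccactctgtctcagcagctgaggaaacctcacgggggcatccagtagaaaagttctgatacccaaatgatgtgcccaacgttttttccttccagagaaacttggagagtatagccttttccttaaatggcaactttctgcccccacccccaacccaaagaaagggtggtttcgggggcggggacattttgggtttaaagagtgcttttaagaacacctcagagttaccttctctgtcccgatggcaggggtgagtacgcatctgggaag
Bcl11b, chr12:108003365-108003664, reverse strand: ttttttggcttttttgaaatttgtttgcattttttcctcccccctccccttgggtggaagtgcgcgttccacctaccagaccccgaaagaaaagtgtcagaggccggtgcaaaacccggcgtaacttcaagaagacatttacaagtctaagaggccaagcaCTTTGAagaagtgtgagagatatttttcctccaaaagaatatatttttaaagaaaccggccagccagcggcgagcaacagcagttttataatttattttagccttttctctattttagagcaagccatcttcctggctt
Zbtb7b-001, chr3:89393329-89393628, reverse strand: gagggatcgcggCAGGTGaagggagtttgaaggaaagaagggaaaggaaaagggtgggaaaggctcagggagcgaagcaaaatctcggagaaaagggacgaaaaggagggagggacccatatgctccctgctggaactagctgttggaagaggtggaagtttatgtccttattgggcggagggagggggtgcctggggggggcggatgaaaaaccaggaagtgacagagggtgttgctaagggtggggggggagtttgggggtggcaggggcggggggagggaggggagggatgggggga
Zbtb7b-003, chr3:89387622-89387921, reverse strand: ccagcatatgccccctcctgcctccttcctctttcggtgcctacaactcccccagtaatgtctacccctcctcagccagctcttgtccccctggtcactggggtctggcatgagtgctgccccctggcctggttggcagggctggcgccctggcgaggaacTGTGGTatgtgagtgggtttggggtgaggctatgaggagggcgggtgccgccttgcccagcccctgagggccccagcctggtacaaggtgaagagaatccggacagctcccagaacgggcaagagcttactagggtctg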

How the data were processed

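TruSeq libraries of sorted CD4 T cells, M1 and M2 macrophages were sequenced, 1 per subset. Per the methods and the submitters' processing notes, the authors aligned reads to mm9 (NCBIM37) with TopHat and Bowtie and estimated transcript levels with Cufflinks and Ensembl. The authors deposited 1 table of FPKM values, with some dashes in place of values and several rows for some identifiers. Columns were assigned by their headings.

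Of the identifiers with a complete row, 97.6% were found in the GENCODE annotation of NCBIM37. The first row of an identifier with values in all 3 columns was kept and rows were summed per gene, which misses levels in rows with a dash. Log2 ratios used FPKM + 1, a scale that understates changes of low genes, and a difference of at least 2-fold on that scale was counted. Genes with a mean of at least 1 FPKM over the 3 libraries formed the background. No test was possible with 1 library per subset.

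FPKM holds no depth. Fragment numbers were estimated by taking the commonest low product of FPKM and length as 1 fragment, in protein-coding genes with a single transcript of 2500 to 8000 bases. Limits are the level of 3 fragments.

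The 9 genes and all lists were chosen with earlier results of these data known. Named were the 9 genes, their transcripts of at least 1 FPKM in any library, all relatives, of each other list the 3 largest and 3 smallest ratios between the M2- and CD4-labelled libraries and members in the opposite direction, of each marker list the range and the 2 most abundant genes, and the 5 nearest genes outside the lists. Other genes and transcripts named were chosen after their values were seen. Some list members are not reported here by themselves and are part of the list counts, sums and medians. Alternatives were other row rules, pseudocounts, scalings, filters and transcript choices. Calculations were tested on simulated data. Calculations used Python 3.11.15 with scipy 1.17.1, numpy 2.4.6 and pandas 2.3.3, and figures used matplotlib 3.10.9.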

Additional observations from a re-analysis of the deposited data

Results flagged for a closer look

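Rows with a dash in another column, and second complete rows of an identifier, did not enter the levels above, yet some listed levels above that of 3 fragments. They gave Bcl11b 20.04 FPKM and Satb1 12.1 FPKM in the M2-labelled library, and Tcf7 0.0866 FPKM in the CD4-labelled one. Gata3 had 0.554 FPKM in the CD4-labelled library and 1.11 in the M1-labelled one. Bach2 had 3.12 FPKM in the M2-labelled library, 3.92 in the CD4-labelled one and 2.24 in the M1-labelled one. Zbtb7b had 8.06, 22.4 and 13.2 FPKM in the same order. No library served as a control for these rows.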

How the results depend on the processing

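No paired analysis was possible because there was 1 library per subset. Each of the 9 genes was higher in the M2-labelled library than in either other library under every alternative that kept the gene. Under those alternatives the 2-fold call against the CD4-labelled library was lost only for Zbtb7b, with all rows summed. Tbx21, which the rescaled totals did not keep, had log2 ratios of 0.91 and 0.92 there against the CD4- and M1-labelled libraries, below 2-fold. Those ratios still add 1 to values that the rescaling made smaller, which shrinks them. The median log2 ratios against the CD4- and M1-labelled libraries were 4.95 and 4.95 with all rows summed, 5.60 and 6.33 with a pseudocount of 0.1 FPKM, and 6.01 and 7.85 with 0.01 FPKM. With the rescaled totals, which kept 6 genes, they were 4.01 and 4.06, and 5 genes were at least 2-fold higher than in the M1-labelled library. With a mean of at least 10 FPKM, which kept 5 genes, they were 5.37 and 5.62, and 5 and 4 genes were at least 2-fold higher. With the most abundant transcript of each gene the median against the CD4-labelled library was 4.55. The median log2 ratio of the CD4-labelled library over the M1-labelled one was 0.30 with either pseudocount, -0.023 with rescaled totals and -0.034 with the mean of 10 FPKM. The number of genes at least 2-fold lower in the CD4-labelled library than in the M1-labelled one was 0 with all rows, with the row of the highest mean and, an alternative chosen after seeing the data, with all complete rows. It was 2 with either pseudocount, when 1 (0.1 FPKM) and 2 (0.01 FPKM) genes were at least 2-fold higher. Fewer genes were compared under the rescaling and the higher mean. By arithmetic, a smaller pseudocount gives larger log2 ratios where a level is low, and other row rules bring in the further rows given above. The cause of any other move was not tested. At the estimated depths, levels in the CD4- and M1-labelled libraries of Tcf7, Lef1, Bcl11b and Tbx21 rest on 0 to 52.5 fragments each.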
